A study of Mus musculus with 6 samples.

Results

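The 10 genes described here encode the core of the NF-κB system in mouse hematopoietic stem cells (HSCs). They are the 5 Rel family subunits Rela, Rel, Relb, Nfkb1 and Nfkb2, the IκB inhibitors Nfkbia, Nfkbib and Nfkbie, the deubiquitinase gene Tnfaip3 and the kinase gene Ikbkb. They were chosen by gene symbol, and all 10 were found among the 21878 gene rows of the series. Nfkbia was already known to be higher in the IGF1 libraries when the list was made, so its values are given as a description with no test.

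RNA-seq was performed on HSCs sorted from the BM of WT mice as CD34-Flk2-Lineage-Sca1+c-Kit+ cells. The mice were C57BL/6 animals and received either vehicle (control, 3 libraries) or recombinant mouse IGF1, a growth factor, as 1 subcutaneous dose (200 µg/kg), with HSCs taken at day 1 (IGF1, 3 libraries). The sample labels conflict on the treatment, since their text on extraction speaks of irradiated mice while the treatment label and the design of the series name IGF-1, and IGF1 was used here. The labels do not say whether the libraries of a group came from separate mice, so p-values measure the spread between these libraries, which may be technical.

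NF-κB is a family of transcription factors that act as dimers. In resting cells the dimers are held in the cytoplasm by IκB proteins. Signals from cytokine and pattern recognition receptors activate the IκB kinase complex, which marks IκB for degradation and frees the dimers to enter the nucleus. Nfkbia and Tnfaip3 are classical target genes of the pathway and restrain it in turn, so their transcripts are often read as signs of NF-κB activity, although the activity itself is set largely by protein turnover and location, which RNA-seq does not measure. In HSCs the pathway is known for its part in survival, in the response to inflammation and in the choice between quiescence and differentiation.

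Target genes of NF-κB carry κB motifs near their start, and the promoters of the members are shown for this reason, before their values. Promoter windows of RefSeq (build GRCm38.p6, 250 bases before to 50 bases after each annotated start) were found for 7 of the 10 members, Rela, Rel, Nfkb2, Nfkbia, Nfkbib, Nfkbie and Tnfaip3, with 10 windows in all. On either strand, the κB consensus was matched in the windows of 5 of these 7 genes, Rel, Nfkb2, Nfkbia, Nfkbie and Tnfaip3, and in 5.14% of 27025 genes with a window. A looser motif, GGGNNNNNCC, was found in 50.8% of all 32851 windows. Below, bases before the start are shown for Nfkbia and Rel, which had higher transcript levels in the IGF1 libraries, and for Tnfaip3, which did not. Bases that lie in an annotated exon were left out. For Nfkb2, whose window at its first annotated start lies in an exon of a longer transcript, only 30 bases around its longest match are shown. Capitals mark the bases that match the κB consensus.
Nfkbia (chr12:55492648-55492897, minus strand): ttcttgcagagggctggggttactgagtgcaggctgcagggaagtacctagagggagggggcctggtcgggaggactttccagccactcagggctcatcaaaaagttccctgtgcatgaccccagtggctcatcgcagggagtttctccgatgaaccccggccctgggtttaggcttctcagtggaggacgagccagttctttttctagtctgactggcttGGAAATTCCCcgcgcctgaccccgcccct
Rel (chr11:23770971-23771219, minus strand): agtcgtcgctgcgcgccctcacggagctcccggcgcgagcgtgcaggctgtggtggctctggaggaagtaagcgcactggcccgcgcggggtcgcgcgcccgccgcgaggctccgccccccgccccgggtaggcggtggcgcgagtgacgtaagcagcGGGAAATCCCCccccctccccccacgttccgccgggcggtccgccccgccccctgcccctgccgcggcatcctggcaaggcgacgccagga
Nfkb2 (chr19:46304689-46304718, plus strand): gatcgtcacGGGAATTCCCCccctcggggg
Tnfaip3 (chr10:19015411-19015547, minus strand): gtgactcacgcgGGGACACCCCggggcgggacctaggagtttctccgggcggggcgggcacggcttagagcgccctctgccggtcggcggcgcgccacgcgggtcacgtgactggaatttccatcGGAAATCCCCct

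The match of Nfkbia lay 29 to 20 bases before its start and that of Rel 92 to 82 bases before it. Nfkb2 had matches 39 to 29 and 11 to 2 bases before its first start, and further ones at its other starts. Tnfaip3 had matches 125 to 116 and 12 to 3 bases before its upstream start. Nfkbie had a match 106 to 97 bases before its start. The windows of Rela and Nfkbib held none, which says only that these letters are not in those windows. The genes with a match included genes whose transcripts were higher in the IGF1 libraries and genes whose transcripts were not. A match is a sequence feature, and binding was not measured.

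**Figure D1:**
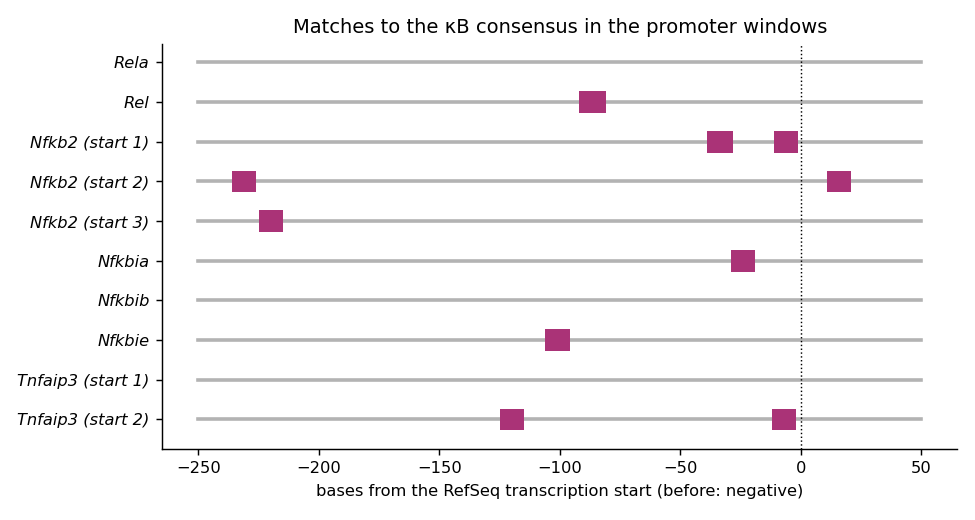
Positions of matches to the κB consensus (filled boxes, either strand, overlapping matches joined) along the promoter windows of 7 members. The x axis is the distance in bases from the RefSeq start, with negative values before it, and each grey line is a window of 300 bases. Rel, Nfkb2, Nfkbia, Nfkbie and Tnfaip3 have a match in at least 1 window, and Rela and Nfkbib have none.

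Values are FPKM (fragments scaled to transcript length and library depth), a unit that can be compared between genes. Summed over all gene rows, FPKM was 466619, 635111 and 466135 in control replicates 1, 2 and 3. In the IGF1 libraries the sum was 677826 to 680285. Scaling the libraries to an equal sum was not run. The 3 control libraries were not alike. Control replicate 2 lay nearer, on the log2 scale, to the mean of the IGF1 libraries than to that of the other controls in 77.2% of the 10449 genes tested and in 7 of the 10 members. On the first principal component, which held 93.2% of the variance, it had a score of 17.8, against -64.7 and -64.8 for control replicates 1 and 3 and 36.6 to 37.8 for the IGF1 libraries. The log2 fold change of each member is therefore given with and without this library, and its label was kept. Some other results are given with all libraries only. The median chi-squared of reads per gene, which rises as libraries differ by more than counting error, was 0.66 between control replicates 1 and 3. It was 0.69 to 0.76 between IGF1 libraries and 35.0 between control replicate 2 and either other control. P-values without control replicate 2 therefore rest on a narrow spread between near-alike libraries. The libraries held 10298069 to 15090863 reads on genes whose read numbers could be recovered. HSC markers were present at a summed 462 to 722 FPKM, with Hoxb5 under 1 FPKM in all libraries. Cd34, Flt3 (Flk2) and Cd48, which the sort or the HSC phenotype should lack, were also present. Cd34 had 265 to 640 FPKM in controls and 230 to 238 after IGF1, Cd48 had 118 to 283 and 86.6 to 93.3, and Flt3 went the other way, with 117 to 172 and 183 to 188. Of 13 neutrophil or monocyte markers that could be tested, 8 had a log2 fold change below 0 and 4 were called lower, S100a8, S100a9, Ngp and Camp. Their summed level was 3668 to 6195 FPKM in controls and 6181 to 6215 after IGF1. Within it Elane, Prtn3, Ctsg and Ly6c2 had log2 fold changes of 1.14 to 2.33 without being called. Without control replicate 2 these genes were called higher. The B cell markers summed to 111 to 423 and 390 to 406 FPKM, and all 6 that could be tested had a log2 fold change above 0, with 0 called. In bulk RNA, more cells of a type and more transcript per cell cannot be told apart, and the part of these markers in the results on the 10 members was not tested.

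All 10 members passed the filter on low values, at least 1 FPKM in at least 3 libraries. Changes were tested with limma on log2(FPKM + 1) over all 10449 genes that passed, and a call required both a change of over 2-fold and an adjusted p under 0.05 (Benjamini-Hochberg). Nfkbia is left out of the counts that follow, since it was chosen for its rise. Of the other 9 members, 0 were called higher and 0 lower, against 1.98% and 4.63% of all genes, 6.61% in all. On the recovered reads limma's voom called 1 higher, Nfkb2, and 0 lower, against 402 and 651 of 10426 genes. At an unadjusted p under 0.05, 2 were higher and 1 was lower, against 19.0% and 34.4% of all genes. With no fold threshold, Nfkb2 and Rel were higher at an adjusted p under 0.05, as were 6.26% of all genes, and no member was lower, against 14.1%. The groups did not overlap in 3 of the 9, Nfkb2 and Rel being higher and Ikbkb lower, against 59.4% of all genes (21.9% higher and 37.4% lower). Without control replicate 2, Nfkb2 was called higher and no other of the 9 was called, while 12.3% of all genes were called higher and 20.6% lower. Leaving out any of the other 5 libraries left 0 of all genes called by limma, with 233 to 386 higher and 450 to 795 lower past the fold threshold at an unadjusted p under 0.05. The median log2 fold change was 0.05 for the 9 members, -0.08 for them without control replicate 2, and -0.18 for all genes. After scaling to the 75th percentile of each library these medians were 0.28 and 0.04.

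**Figure D2:**
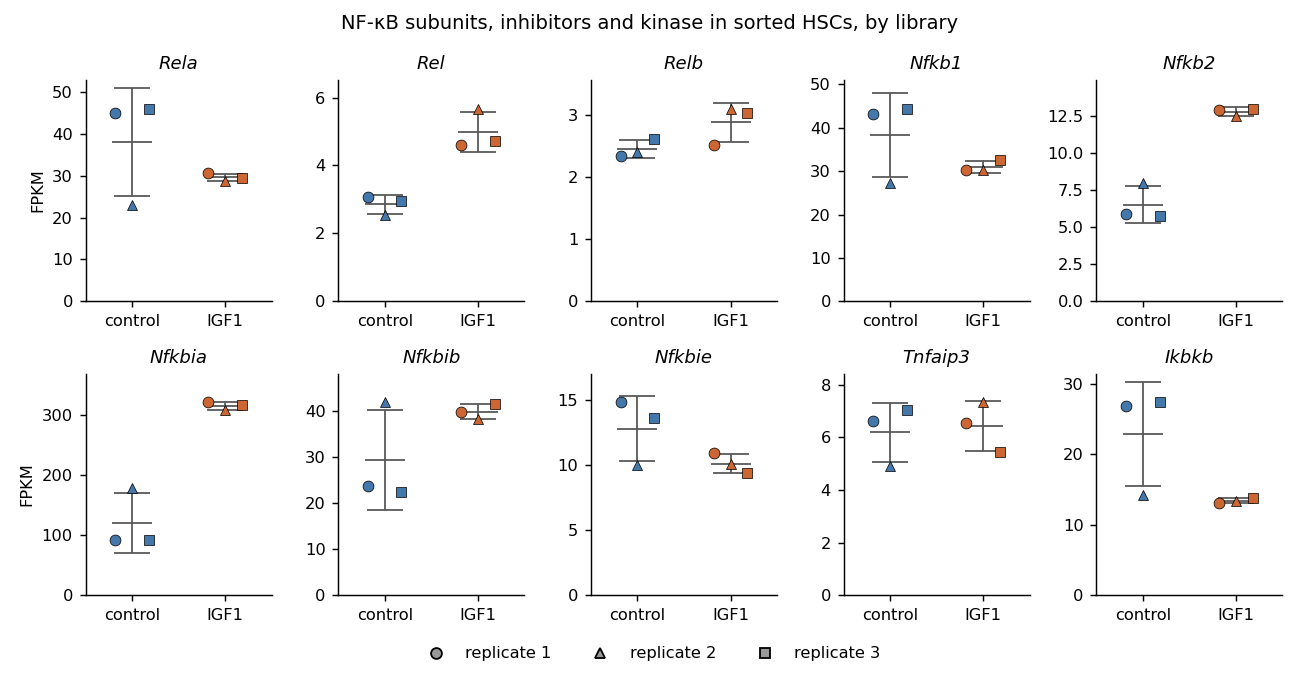
FPKM of the 10 members in each library (y axis, linear from 0), with controls and IGF1 libraries side by side. Symbols mark the replicate number, which does not pair the libraries, and bars show the mean ± SD of 3 libraries. Control replicate 2 (triangle) sits apart from the other controls in Rela, Nfkb1, Nfkbia, Nfkbib and Ikbkb, but with them in Rel and Relb.

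Among the subunits, Nfkb2 and Rel were higher in the IGF1 libraries, while the values of Rela, Nfkb1 and Relb overlapped between the groups. Nfkb2 (chr19:46304320-46312385, GRCm38, plus strand) encodes the precursor of the subunit used by the non-canonical branch of the pathway. It had 5.89, 7.99 and 5.74 FPKM in controls (replicates 1, 2 and 3, the order used throughout) and 12.97, 12.5 and 13.03 FPKM after IGF1. All 3 IGF1 libraries were above all controls, and control replicate 2 lay, in FPKM, 31.0% of the way from the other controls to the IGF1 mean. The log2 fold change was 0.89 (SE 0.15, limma adjusted p = 0.0308), short of the fold threshold. Without control replicate 2 it was 1.02 (adjusted p = 4.5e-08), past both thresholds. With any other library left out the log2 fold change was 0.81 to 0.91 and the adjusted p 0.141 to 0.164. Nfkb2 was also past both thresholds with 75th percentile scaling (1.11), quantile normalization (1.16), library weights (1.02) and voom (1.03). Annotated exons of Nfkb2 share 299 bases with Psd and 531 with a noncoding gene that was not listed, both on the opposite strand. Psd had 0.172, 2.23 and 0.219 FPKM in controls and 1.65 to 1.84 FPKM after IGF1.

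Rel (chr11:23736847-23770970, minus strand) encodes c-Rel, a subunit with a transactivation domain that is prominent in blood cells. Its values were 3.07, 2.55 and 2.95 FPKM in controls and 4.59, 5.67 and 4.71 FPKM after IGF1. These rest on few reads, 76 to 127 in the controls and 147 to 166 in the IGF1 libraries. Counting error alone gave 95% intervals of 2.56 to 3.65, 2.01 to 3.19 and 2.45 to 3.52 FPKM for the controls. For IGF1 replicates 1, 2 and 3 the intervals were 3.88 to 5.39, 4.84 to 6.60 and 4.004 to 5.51 FPKM. No control interval met an IGF1 interval. Rel was the only member at an adjusted p under 0.05 in which control replicate 2 was farther from the IGF1 libraries than the other controls were. limma gave a log2 fold change of 0.63 (SE 0.13, adjusted p = 0.0372), and 0.57 without control replicate 2 (adjusted p = 0.00014). With any other library left out it was 0.55 to 0.68 (adjusted p 0.147 to 0.164). The ratio of the group means, to which no pseudocount was added, was 1.75, with no scaling of the libraries to an equal sum of FPKM. Correcting each library for gene length and GC content (loess) gave a log2 fold change of 0.94.

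Rela (chr19:5637483-5648130, plus strand) encodes the main transactivating subunit of the canonical branch. It had 45.0, 23.0 and 46.0 FPKM in controls and 30.5, 28.8 and 29.5 FPKM after IGF1. The groups overlapped, and control replicate 2 was the lowest of the 6 libraries. IGF1 over control, the log2 fold change was -0.29 (SE 0.27, limma adjusted p = 0.397), with a 95% interval of -0.95 to 0.38. Without control replicate 2 it was -0.60 (adjusted p = 3e-07).

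Nfkb1 (chr3:135584655-135691547, minus strand) encodes the precursor of the usual partner of Rela. It had 43.3, 27.2 and 44.4 FPKM in controls and 30.3, 30.2 and 32.6 FPKM after IGF1. Control replicate 2 was again the lowest library. The log2 fold change was -0.26 (SE 0.20, limma adjusted p = 0.305), and -0.49 without control replicate 2 (adjusted p = 3.6e-06). The direction turned once each library was corrected for gene length and GC content, to 0.32 (adjusted p = 0.0464), so no direction is given for this gene.

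Relb (chr7:19606217-19629438, minus strand) encodes the partner of the Nfkb2 product. It was the lowest of the members, at 2.35, 2.41 and 2.62 FPKM in controls and 2.53, 3.11 and 3.03 FPKM after IGF1. These values come from 79 to 120 reads, and the groups overlapped. limma gave a log2 fold change of 0.17 (SE 0.11, adjusted p = 0.244), with a 95% interval of -0.11 to 0.44, and 0.16 without control replicate 2.

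Turning to the inhibitors, Nfkbia had the highest level of the 10 members in both groups. Nfkbia (chr12:55489410-55492647, minus strand) encodes IκBα, which holds Rela dimers in the cytoplasm and is resynthesized when NF-κB is active. It had 91.3, 178 and 92.6 FPKM in controls and 321, 308 and 316 FPKM after IGF1. The lowest IGF1 library was well above the highest control, and control replicate 2 stood between, in FPKM 38.7% of the way from the other controls to the IGF1 mean. The group means were 121 ± 49.8 and 315 ± 6.62 FPKM (SD, n = 3 each). IGF1 over control, the log2 fold change was 1.45 (SE 0.28), a 2.73-fold higher level of FPKM + 1, and 1.77 without control replicate 2. Over all alternatives it ranged from 1.29 to 1.77. Depth did not limit this value, which rests on 2311 to 6442 reads per library.

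The summed immediate early genes, a group that responds quickly to stimulation and to the handling of cells, were 4727, 2758 and 4717 FPKM in controls and 3537 to 3622 FPKM after IGF1. Of the 12 that could be tested, 1 was called, as higher. It was Fosb, an AP-1 subunit, at 13.03, 29.9 and 13.3 FPKM in controls and 53.7 to 55.7 FPKM after IGF1. The part of handling in the values of Nfkbia was not tested.

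The 5 genes outside the list with profiles most like that of Nfkbia were Sapcd1, Svbp, Kdm6b, Map1lc3a and Ccdc85b. Likeness was the root mean square distance between profiles of log2(FPKM + 1), each centred on its mean over the 6 libraries, and it was 0.0559 to 0.068 for these genes. Kdm6b, a histone demethylase gene, had 2.96, 7.52 and 3.06 FPKM in controls and 14.4, 13.2 and 13.7 FPKM after IGF1. Map1lc3a, which encodes a protein of the autophagosome membrane, had 9.73, 21.1 and 10.3 FPKM in controls and 36.4, 32.2 and 34.7 FPKM after IGF1. The likeness was used to choose these genes, so their values are a description.

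Nfkbib (chr7:28758251-28767512, minus strand) encodes IκBβ, an inhibitor that is resynthesized more slowly. It had 23.8, 41.9 and 22.5 FPKM in controls and 39.7, 38.3 and 41.6 FPKM after IGF1. Control replicate 2 was the highest of all 6 libraries, so the groups overlapped. The log2 fold change was 0.48 (SE 0.24, limma adjusted p = 0.145), and 0.76 without control replicate 2 (adjusted p = 1.7e-07). Annotated exons of Nfkbib share 42 bases with Sirt2 and 314 with Ccer2 on the opposite strand, and Ccer2 was listed at 0 in all libraries.

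Nfkbie (chr17:45555703-45563169, plus strand) encodes IκBε. It had 14.8, 10.02 and 13.6 FPKM in controls and 10.9, 10.1 and 9.42 FPKM after IGF1, and the groups overlapped. limma gave a log2 fold change of -0.30 (SE 0.17, adjusted p = 0.18), and -0.45 without control replicate 2 (adjusted p = 0.00014). With quantile normalization it was 0.03, on the other side of 0.

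Tnfaip3 (chr10:19000910-19015657, minus strand) encodes a ubiquitin-editing enzyme that shuts down signals to the IκB kinase. It had 6.62, 4.92 and 7.04 FPKM in controls and 6.56, 7.33 and 5.44 FPKM after IGF1. The groups overlapped, and the spread within each was wider than the distance between them. IGF1 over control, the log2 fold change was 0.05 (SE 0.17, limma adjusted p = 0.806), with a 95% interval of -0.37 to 0.48, and -0.08 without control replicate 2. It was 0.34 after correction for gene length and GC content (adjusted p = 0.085) and 0.31 with quantile normalization.

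The kinase gene Ikbkb (chr8:22659212-22706589, minus strand) encodes IKKβ, the subunit that phosphorylates IκB in the canonical branch. It had 26.9, 14.3 and 27.4 FPKM in controls and 13.1, 13.4 and 13.8 FPKM after IGF1. All IGF1 libraries were below all controls, but control replicate 2 lay 93.8% of the way to the IGF1 mean. The log2 fold change was -0.67 (SE 0.26, limma adjusted p = 0.0826), with a 95% interval of -1.30 to -0.04. Without control replicate 2 it was -0.96 (adjusted p = 2.5e-08), and after correction for gene length and GC content -0.38.

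**Figure D3:**
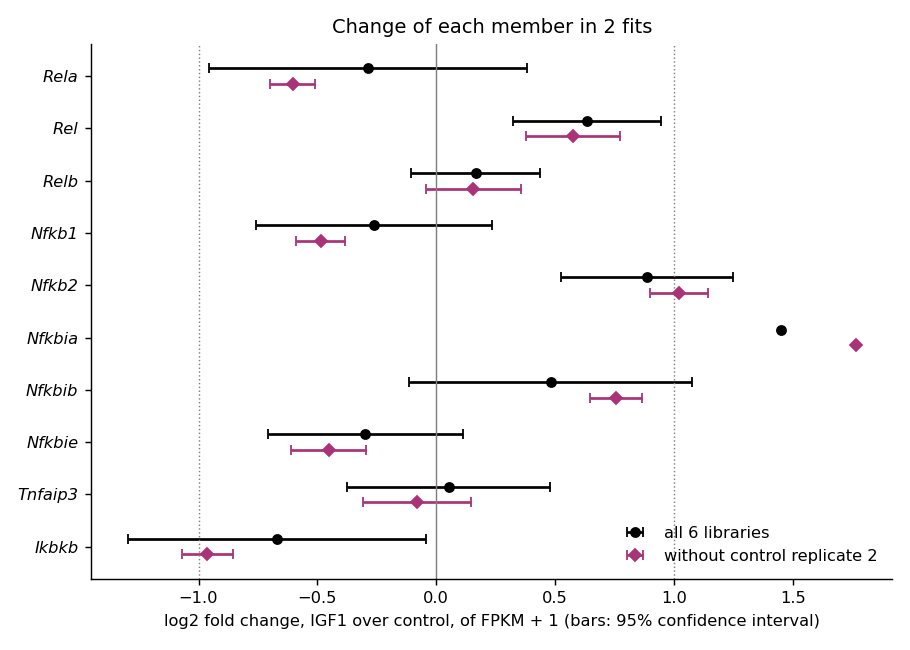
Log2 fold change of FPKM + 1, IGF1 over control (x axis), of each member with all 6 libraries (circles) and without control replicate 2 (diamonds). Bars are 95% confidence intervals from limma, left out for Nfkbia, which was chosen for its rise, the solid line marks no change and the dotted lines a fold change of 2. The change of Rel is 0.63 and 0.57 in these fits, whereas that of Rela is -0.29 and -0.60.

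The order of the levels, which can be compared between genes because FPKM is per length, was led by Nfkbia in both groups. In the controls Nfkb1 (38.3 FPKM), Rela (38.0), Nfkbib (29.4) and Ikbkb (22.8) followed, and each of these overlapped in range with the next. Nfkbie (12.8 FPKM), Nfkb2 (6.54), Tnfaip3 (6.19), Rel (2.86) and Relb (2.46) came last, with overlaps between Nfkb2 and Tnfaip3 and between Rel and Relb. In the IGF1 libraries Nfkbib (39.9 FPKM) stood above Nfkb1 (31.0) and Rela (29.6), and Nfkb2 (12.8) stood above Nfkbie (10.1). There the ranges of neighbours overlapped only for Nfkb1 with Rela and for Tnfaip3 (6.44) with Rel (4.99).

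Ratios within a library do not depend on how the libraries were scaled to each other. The summed FPKM of the 3 IκB genes was 1.31, 3.64 and 1.27 times that of the 5 subunit genes in the controls and 4.60, 4.44 and 4.43 times in the IGF1 libraries. The difference of this ratio was 1.30 on the log2 scale (pooled SD 0.61, n = 3 each), and 1.80 without control replicate 2. With the mean of log2(FPKM + 1) over the genes of each side in place of the sum it was 0.32. The ratio of sums followed Nfkbia, which made up 70.3 to 77.4% of the IκB sum in the controls and 86.1 to 86.4% in the IGF1 libraries, and it is a description with no test for that reason. The subunit sum itself was 99.6, 63.2 and 102 FPKM in controls and 80.9, 80.3 and 82.9 FPKM after IGF1, so that control replicate 2 lay below both the other controls and the IGF1 libraries.

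The makeup of the subunits also differed between libraries. Nfkb2 was 0.136, 0.294 and 0.129 of Nfkb1 in the controls and 0.399 to 0.428 of it in the IGF1 libraries. Rel was 0.0682, 0.111 and 0.0642 of Rela in the controls and 0.150 to 0.197 of it in the IGF1 libraries. In both ratios the IGF1 libraries were above all controls, with control replicate 2 the highest control. These ratios were not corrected for gene length and GC content, a correction that turned the direction of Nfkb1. The ratio of Rela to Nfkb1, the usual partners, was 1.04, 0.848 and 1.04 in the controls and 0.904 to 1.009 in the IGF1 libraries, where the groups overlapped.

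**Figure D4:**
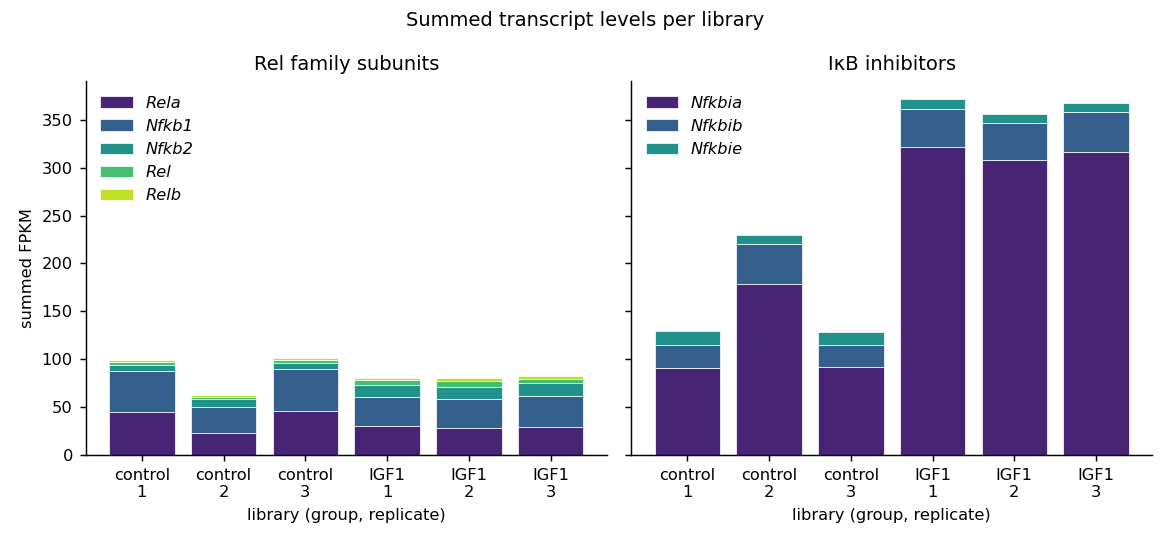
Summed FPKM per library (y axis, from 0) of the 5 Rel family subunits on the left and of the 3 IκB inhibitors on the right, each bar being a library and each colour a gene. The IκB sum is 129 to 230 FPKM in controls and 356 to 372 FPKM after IGF1, most of it Nfkbia.

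The rest of the pathway was followed with a list of 90 other genes, of which 79 could be tested and 11 were too low. limma called 1 of them higher and 4 lower, against 1.98% and 4.63% of all genes. At an adjusted p under 0.05 with any fold, 2 were higher and 12 lower, against 6.26% and 14.1% of all genes. Their median log2 fold change was -0.32, against -0.18 for all genes, and -0.12 against 0.04 after 75th percentile scaling. After correction for gene length and GC content it was -0.09 against 0.01. No pathway gene was called when any other library was left out, as above. Without control replicate 2, 6 were called higher and 22 lower, while 12.3% and 20.6% of all genes were. Control replicate 2 lay nearer to the IGF1 libraries in 63 of the 79.

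Of 14 receptor and ligand genes, 9 were tested and 1 was called, as lower, against 4.63% of all genes. It was Il1rap, the shared chain of the IL-1 receptor, at 3.34, 1.21 and 3.16 FPKM in controls and 0.566, 0.687 and 0.581 FPKM after IGF1. Its log2 fold change was -1.08 (SE 0.27, limma adjusted p = 0.0459), and -1.40 without control replicate 2. After correction for gene length and GC content it was -0.46 (adjusted p = 0.0531), no longer called. The median of the 9 was -0.51, and -0.19 after the same correction.

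Of 24 adaptor and ubiquitin enzyme genes, 23 were tested and 1 was called, as lower, against 4.63% of all genes. Before any length and GC correction, the log2 fold change was below 0 in 20 of the 23, against 59.6% of all genes. The called gene was Ube2v1, a partner of the enzyme that builds the ubiquitin chains of this pathway, at 60.5, 39.7 and 64.9 FPKM in controls and 27.3, 22.9 and 26.3 FPKM after IGF1. limma gave a log2 fold change of -1.05 (SE 0.21, adjusted p = 0.0367), and -1.27 without control replicate 2. With the length and GC correction it was -0.999, just under the fold threshold. It was also short of that threshold with 75th percentile scaling (-0.80), quantile normalization (-0.85) and a pseudocount of 5 (-0.95). The exons of Ube2v1 share 1673 bases with an overlapping transcript of the same strand, so reads may have been split. The median of the 23 was -0.47, and -0.26 after 75th percentile scaling. After the length and GC correction it was -0.11, against 0.01 for all genes.

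Of the 12 other genes of the kinase complexes, 0 were called by limma, against 1.98% of all genes higher and 4.63% lower. By voom 2 were called, both lower, as were 651 of 10426 genes. At an unadjusted p under 0.05, 1 was higher and 5 were lower, against 19.0% and 34.4% of all genes. When control replicate 2 was left out, 5 were called lower and 1 higher, against 20.6% and 12.3%. Chuk, which encodes IKKα, the partner of IKKβ, had 19.5, 11.3 and 18.2 FPKM in controls and 7.41, 7.75 and 7.98 FPKM after IGF1. Its log2 fold change was -0.96 (SE 0.21, limma adjusted p = 0.0412), and -1.19 without control replicate 2. After correction for gene length and GC content it was -0.24 (adjusted p = 0.0759). Ikbkg, which encodes the regulatory subunit of the same complex, had 6.16, 2.37 and 6.90 FPKM in controls and 1.64, 1.60 and 1.63 FPKM after IGF1, with a log2 fold change of -1.13 (SE 0.33, adjusted p = 0.054), and -1.52 without control replicate 2. The groups of Ikbkb, Chuk and Ikbkg did not overlap, the IGF1 libraries being lower in each, as they were in 37.4% of all genes. Exons of Ikbkg share 418 bases with G6pdx on the opposite strand, which had 34.1 to 65.2 FPKM in controls and 27.3 to 28.3 FPKM after IGF1.

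Of 17 other inhibitors and modulators, limma called Nfkbil1 higher and Bcl3 and Itch lower, against 1.98% and 4.63% of all genes. Bcl3, an atypical IκB protein of the nucleus that works with Nfkb1 and Nfkb2 homodimers, had 31.2, 15.2 and 31.5 FPKM in controls and 8.69, 7.94 and 9.15 FPKM after IGF1. Its log2 fold change was -1.42 (SE 0.29, adjusted p = 0.0377), and -1.76 without control replicate 2. Itch, a ubiquitin ligase that works with the Tnfaip3 protein, had 15.1, 6.90 and 14.4 FPKM in controls and 5.12, 4.52 and 4.15 FPKM after IGF1, with a log2 fold change of -1.17 (SE 0.30, adjusted p = 0.0466), and -1.498 without control replicate 2. For Itch the length and GC correction gave -0.65 (adjusted p = 0.052), no longer called. Nfkbil1, named for its likeness to IκB, had 7.16, 11.9 and 7.04 FPKM in controls and 17.3, 17.5 and 19.1 FPKM after IGF1. Its log2 fold change was 1.001 (SE 0.21, adjusted p = 0.0388), 1.22 without control replicate 2, and 0.38, short of the fold threshold, after correction for gene length and GC content.

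Of 23 target genes, 18 were tested and limma called 0, as did voom. At an unadjusted p under 0.05, 7 were higher and 5 lower, against 19.0% and 34.4% of all genes, and at an adjusted p under 0.05 with any fold 1 was higher and 2 were lower, against 6.26% and 14.1%. Their median log2 fold change was 0.24, with 10 above 0 and 8 below, and 0.05 after correction for gene length and GC content. The genes named next were chosen after their values were seen. Gadd45b, a stress response gene, was the higher one, at 12.9, 14.5 and 12.8 FPKM in controls and 25.6, 23.5 and 26.5 FPKM after IGF1, with a log2 fold change of 0.87 (SE 0.11, adjusted p = 0.0286), 0.92 without control replicate 2 and 0.41 after the length and GC correction. Bcl2l1 (-0.66, adjusted p = 0.0377), a survival gene, and Sod2 (-0.39, adjusted p = 0.0477), a mitochondrial superoxide dismutase gene, were those below 0. The length and GC correction turned Sod2 to 0.06, so no direction is given for it. In Gadd45b, as in Rel, control replicate 2 stayed near the other controls.

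Without control replicate 2, the chemokine genes Ccl3, Ccl4 and Ccl5 were called higher, and the adhesion genes Icam1 and Vcam1 and the prostaglandin synthase gene Ptgs2 were called lower, while 12.3% of all genes were called higher and 20.6% lower. Ccl3 had 144, 372 and 131 FPKM in controls and 426, 446 and 423 FPKM after IGF1 (log2 fold change 1.17 with all libraries, adjusted p = 0.0697, and 1.64 without control replicate 2). Vcam1 had 9.73, 1.22 and 8.82 FPKM in controls and 0.784, 0.806 and 0.753 FPKM after IGF1 (-1.79, adjusted p = 0.0674, and -2.53 without control replicate 2). With all libraries and the length and GC correction, the log2 fold change was 0.50 for Ccl3, 0.0077 for Ccl4 and 0.23 for Ccl5, from 1.17, 0.93 and 1.28 without it. It was -0.69 for Icam1, -1.10 for Vcam1 and -0.59 for Ptgs2. Control replicate 2 lay near the IGF1 libraries in Ccl3 and Vcam1.

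**Figure D5:**
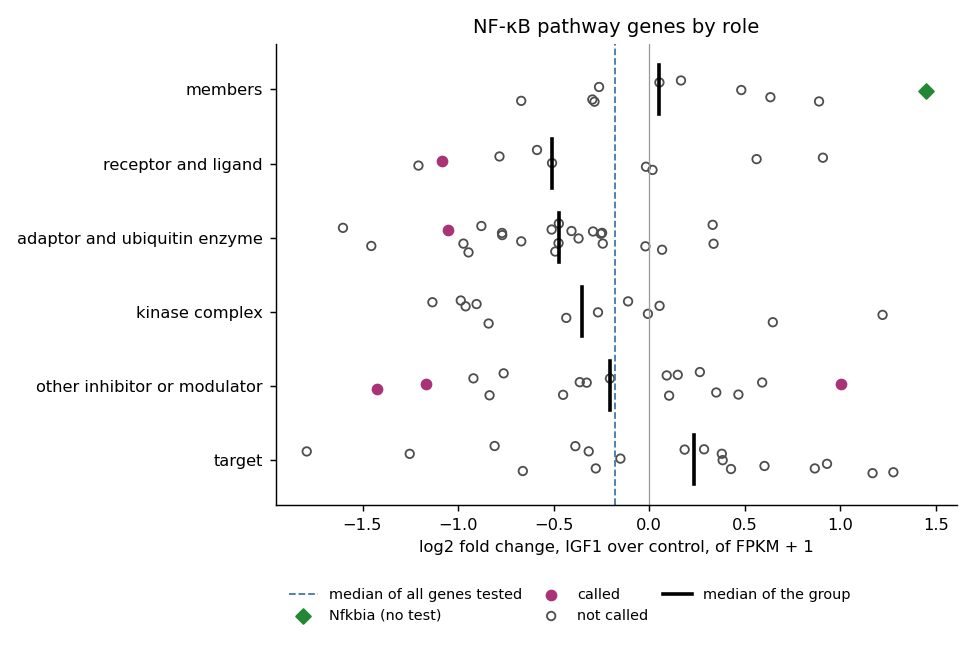
Log2 fold change of FPKM + 1, IGF1 over control (x axis), of the 10 members and of the 79 tested pathway genes, grouped by role (rows, spread vertically for legibility). Filled points are genes called by limma, black bars the median of each row and the dashed line the median of all genes tested, -0.18. The diamond is Nfkbia, which was chosen for its rise and left out of the median of its row, and the 5 called genes are Nfkbil1 on the higher side and Il1rap, Ube2v1, Bcl3 and Itch on the lower side.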

How the data were processed

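HSC RNA-seq values of 3 control and 3 IGF1 libraries were used. The paper states that reads were cleaned with fastp, that RSEM quantified genes and that DESeq2 was the test, whereas the submitters' processing notes name fastp, HISAT2, StringTie and GRCm38 (mm10). The libraries were made with a stranded kit, and the strand setting of the counting is not given in the sources used here. Each deposited file lists gene symbols with a value whose unit is not named. The values the authors deposited were taken as FPKM, since in 15617 of 15640 genes (99.9%) they were whole multiples, within 0.02, of a step that depends on gene length.

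Genes that reached 1 FPKM in 3 or more libraries (10449) were tested on log2(FPKM + 1), which understates changes of low genes, with limma 3.58.1 (lmFit, eBayes with a trend) in R 4.3.3. Benjamini-Hochberg adjustment was over all of them. A fold change over 2 and an adjusted p under 0.05 made a call. Recovered reads gave the Poisson intervals, which cover counting error only, and a voom alternative.

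The members and lists were chosen with earlier results of these data known. The text names all 10 members, up to 4 called pathway genes in each direction with the smallest adjusted p, Chuk, Ikbkg and the 5 genes nearest to Nfkbia. Fosb, other markers, overlapping genes and the target genes named fall outside this rule. Gene positions are from GENCODE M21 and promoters from RefSeq. Samples with the same replicate number did not deviate together, so the main fit was unpaired. Alternatives were other scalings, filters, pseudocounts, a replicate block, library weights, leaving out each library and removing length and GC trends.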

Additional observations from a re-analysis of the deposited data

How the results depend on the processing

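The calls depended on which libraries were included. With each library left out in turn, the genes called higher ranged from 0 to 1281 and lower from 0 to 2157. Members other than Nfkbia, which was chosen for its rise, ranged from 0 to 1 called higher. Pathway genes ranged from 0 to 6 called higher and from 0 to 22 lower. The upper values are those without control replicate 2, and without any other library limma called 0 genes, although 233 to 386 higher and 450 to 795 lower genes then had an unadjusted p under 0.05 and a fold change over 2. The log2 difference of the IκB to subunit ratio ranged from 1.04 to 1.80 with a library left out, and was 0.32 with the mean of log2 values in place of the sum. With 3 libraries per group, changes like that of Tnfaip3 are bounded only by their intervals.

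The replicate numbers did not pair the libraries (correlations of deviations -0.06, -0.05 and 0.01). With the replicate block, 0 genes were called in either direction, members and pathway genes included, with 1707 higher and 3084 lower at an unadjusted p under 0.05, and Rel and Nfkb2 had an adjusted p of 0.0851 each.

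Genes called higher and lower numbered 109 and 265 with no filter, 66 and 157 with a pseudocount of 5, 1276 and 2159 with library weights, and 654 and 1476 with no fold threshold. There were 402 higher with voom, 260 lower with 75th percentile scaling (301 higher), 319 lower with quantile normalization (304 higher) and 113 lower with length and GC trends removed (194 higher). With Nfkbia left aside, Nfkb2 was the only member called higher with 75th percentile scaling, quantile normalization, library weights and voom. With no fold threshold Nfkb2 and Rel were called higher. Pathway genes called higher and lower were 2 and 1 with 75th percentile scaling, 0 and 1 with a pseudocount of 5 and with length and GC trends removed, 6 and 22 with library weights, and 2 and 12 with no fold threshold. They were 2 higher with quantile normalization, 2 lower with no filter and 7 lower with voom. No alternative called a member lower.

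The 285 values of named genes under alternatives include Nfkbia and genes named because they were called, so their tally is a description. Of them, 217 kept their direction and side of the threshold, 51 lost the call, 12 gained it and 5 changed direction. The 5 were Nfkb1 with length and GC trends removed (0.32), Nfkbie with quantile normalization (0.031), and Tnfaip3 without control replicate 2 (-0.081), without IGF1 replicate 2 (-0.032) and with library weights (-0.072). Tnfaip3 ranged from -0.081 to 0.15 with a library left out and to 0.34 over all alternatives. The causes were not tested.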
